A study of Sus scrofa with 4 samples.

Results

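The cells described here were cells of porcine pancreatic ductal organoids (PPDO) in which at least 1 molecule of LGR6 and at least 1 molecule of LEF1 was counted, called LGR6+LEF1+ cells. Molecules were counted as unique molecular identifiers (UMIs) by droplet-based single-cell RNA sequencing. Of 16222 organoid cells that passed the quality limits (1000 to 9000 features and at most 3% mitochondrial UMIs), 3956 were LGR6+LEF1+, 2270 of 8885 in PPDO 1 and 1686 of 7337 in PPDO 2. Another 4029 cells held LGR6 without LEF1 (LGR6+ only), 1364 held LEF1 without LGR6 (LEF1+ only) and 6873 held neither (LGR6-LEF1-). The whole series counted here came to 30878 cells and barcodes.

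PPDO are three-dimensional cultures grown from hand-picked pancreatic ducts in a basement membrane matrix. Both libraries shared a medium with WNT3a, R-spondin 1, noggin, EGF, FGF10, gastrin, prostaglandin E2, nicotinamide, the TGF-beta receptor inhibitor A83-01 and the ROCK inhibitor Y-27632. Cells were dissociated with TrypLE and sorted as live cells before loading. The study describes its PPDO lines as taken from a late postnatal and an adult pig at different passages. Its methods name the PPDO samples by postnatal days that both fall in its own late postnatal range, so the stages are unsettled. The paper states that, at the passages sampled, the majority of the culture was no longer in the mature duct state. How this bears on the share of LGR6+LEF1+ cells was not tested. Which line gave which library is not in the labels, so line, age and passage cannot be told apart between the libraries. The other group of the series was dissociated primary pancreas, also with 2 libraries. The paper's pigs were wild-type or INS-eGFP, with eGFP under the insulin promoter, on a German landrace background. Primary pancreas came from a pig of each genotype, and the genotype behind each PPDO line is not stated. PPDO 1 and 2 held 366263520 and 316018482 UMIs in 9853 and 8071 barcodes, and the cells kept had a median of 34176 and 34459 UMIs. The libraries shared 23 cell barcodes.

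LGR4, LGR5 and LGR6 are receptors for R-spondins. When an R-spondin binds them, the ubiquitin ligases ZNRF3 and RNF43 are cleared from the cell surface, frizzled receptors persist there and WNT signalling is amplified. LEF1 is a DNA-binding partner of beta-catenin at WNT target genes, and in skin both LGR6 and LEF1 are known from hair follicle progenitors. In the RefSeq annotation of the pig genome build Sscrofa11.1, LGR6 (ENSSSCG00000044583) lies on chromosome 10 from 24358946 to 24454430 and LEF1 (ENSSSCG00000009148) on chromosome 8 from 113824511 to 113944078. Each gene was counted over its annotated transcript and an extension past the 3' end, which held 14.7% and 12.7% of the LGR6 UMIs and 2.36% and 2.67% of the LEF1 UMIs in PPDO 1 and 2.

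LGR6+LEF1+ cells made up 25.5% of cells in PPDO 1 (95% exact binomial interval 24.6 to 26.5, counting error only) and 23.0% in PPDO 2 (22.0 to 24.0). These shares were set by the rule and moved with depth. In PPDO 1 the share was 2.03% to 8.99% in the 5 shallowest of 20 depth bins, reached 43.2% in the bin with a median of 42475.5 UMIs, and was 24.3% in the deepest bin. In PPDO 2 it went from 6.81% in the shallowest bin to 31.1% in the bin with a median of 57007 UMIs, with 26.8% in the deepest. After every cell was thinned to 10000 UMIs, which left out 522 and 176 shallower cells, 11.3% and 9.30% of cells were LGR6+LEF1+. Primary pancreas held 1 such barcode in each library, of 6999 and 7657, at a much lower median depth of 8592 and 7402 UMIs.

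**Figure D1:**
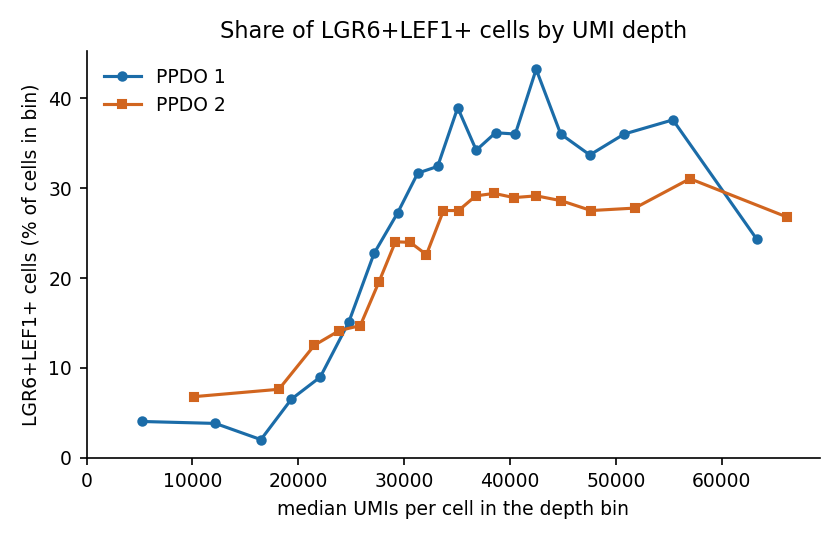
Percentage of LGR6+LEF1+ cells (vertical axis) in 20 depth bins of equal cell number per PPDO library, placed at the median UMIs per cell of the bin (horizontal axis). The share was under 10% in the 5 shallowest bins of PPDO 1 and the 2 shallowest of PPDO 2, and between 22.6% and 43.2% in each of the 14 deepest bins of either library.

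Free RNA can place a UMI of LGR6 or LEF1 in a cell that does not express it, so the same shares were read in the 5% of cells with the most cornified RNA, the transcripts of terminally differentiated squamous cells. Those 445 and 367 cells were deeper, with medians of 40626 and 41988 UMIs, than the cells in the lower 50% by cornified RNA, at 32385 and 33576. LGR6 was seen in 10.6% and 10.4% of them and LEF1 in 12.6% and 8.99%, against 49.5% and 68.8%, and 38.1% and 38.1%, in the lower 50%. Both genes were found together in 1.35% and 1.91% of the most cornified cells, which is 6 and 7 cells, against 29.9% and 31.9% of the lower 50%. At 10000 UMIs per cell the contrast was 0.262% and 0.296% against 13.6% and 13.5%. The share of LGR6+LEF1+ cells was thus lower in the most cornified cells at equal depth in both libraries. Cornified genes were themselves low in LGR6+LEF1+ cells, and their list was chosen with results of these data known. This contrast therefore cannot measure free RNA, and the part of free RNA was not tested.

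LGR6 and LEF1 chose the cells, and their levels are given as a description. LGR6+LEF1+ cells carried a median of 5 LGR6 UMIs in each library, with at most 39 and 43, and a median of 3 and 2 LEF1 UMIs, with at most 29 and 55. As CPM, the customary scaling of UMI counts to 1 fixed library total, LGR6 was at 166 and 184 in LGR6+LEF1+ cells and at 113 and 113 in LGR6+ only cells. LEF1 was at 92.3 and 88.0 in LGR6+LEF1+ cells and at 54.0 and 60.6 in LEF1+ only cells. LGR6+LEF1+ cells held 70.0% and 54.5% of all LGR6 UMIs and 82.3% and 84.0% of all LEF1 UMIs. As a further description of the genes that chose the cells, with no test, the Mantel-Haenszel odds ratio of LGR6 and LEF1 detection over depth bins was 5.07 in PPDO 1 and 3.48 in PPDO 2. The odds ratios were 4.02 and 2.94 after thinning and 5.87 and 4.12 where 2 UMIs of each gene were asked for.

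At the edge of the rule, 184 and 116 cells had exactly 1 UMI of each gene. Just outside it, 645 and 796 cells had 1 LGR6 UMI and no LEF1, and 498 and 247 had 1 LEF1 UMI and no LGR6. Well inside it, 1373 and 975 cells had at least 2 UMIs of each gene. The rule takes deeper cells, since LGR6+LEF1+ cells had a median of 39104 and 37577 UMIs and LGR6-LEF1- cells 26792 and 30529. Comparisons were therefore made on equal numbers of cells drawn from each depth bin, 2030 cells of each class in PPDO 1 and 1668 in PPDO 2. At matched depth, LGR6+LEF1+ cells had a median of 6668.5 and 6507.5 genes against 6301 and 6097.5, and 0.481% and 0.454% mitochondrial UMIs against 0.369% and 0.346%. Their median doublet scores were 0.0635 and 0.0673 against 0.0559 and 0.0585. Over all cells, not depth-matched, 46 and 37 LGR6+LEF1+ cells scored above 0.25, which is 2.03% and 2.19% against 1.26% and 0.73% of LGR6-LEF1- cells. Without the cells over this score, the comparison of all genes described below called 7761 genes in place of 7312, with 7152 of them shared and in the same direction. The part of the differences in genes per cell and mitochondrial UMIs in the results was not tested.

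The other markers given with the rule were CXCL14, a secreted chemokine, HMCN1, an extracellular matrix protein, CACHD1, a membrane protein, and SOX6, a transcription factor. They had been chosen with results of these cells known, so their levels and folds are descriptions, and where they recur in a ranking or a gene group below they add no support to it. CXCL14 stood at 459 and 264 CPM in the depth-matched LGR6+LEF1+ cells of PPDO 1 and 2, against 37.8 and 27.7 CPM in LGR6-LEF1- cells, a log2 fold change of 3.23 ± 0.09 (SE, n = 2 libraries). HMCN1 had 194 and 62.1 CPM against 23.1 and 8.82, so that PPDO 1 was the higher library in both classes. CACHD1 had 125 and 118 against 14.0 and 17.0 CPM, and SOX6 431 and 428 against 123 and 133. For each of the 4 genes, both LGR6+LEF1+ sums lay above both LGR6-LEF1- sums. All 4 were detected together in 58.8% and 38.6% of LGR6+LEF1+ cells and in 6.502% and 3.18% of LGR6-LEF1- cells, and none of the 4 in 0.394% and 0.779% against 16.6% and 20.7%. The markers were thus detected more often in LGR6+LEF1+ cells in both libraries, but many of these cells lacked at least 1 of the 4, and HMCN1 was detected in 84.5% of them in PPDO 1 and 55.9% in PPDO 2.

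**Figure D2:**
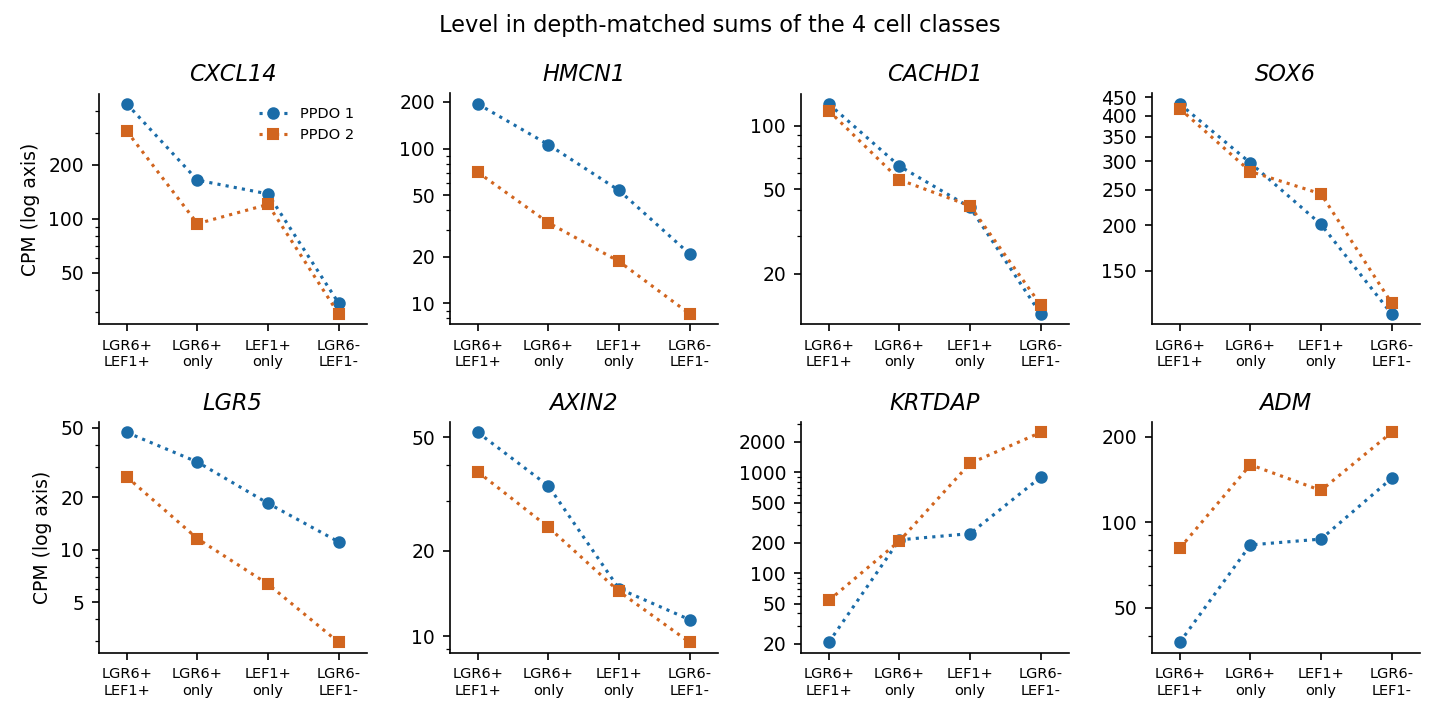
CPM (log axes that do not start at 0, scaled per panel) of 8 genes in sums of depth-matched cells of the 4 classes, 813 cells per class in PPDO 1 (circles) and 491 in PPDO 2 (squares), with 1 point per library. CXCL14, HMCN1, CACHD1, SOX6, LGR5 and AXIN2 were highest in LGR6+LEF1+ cells and lowest in LGR6-LEF1- cells in both libraries, and KRTDAP and ADM were lowest in LGR6+LEF1+ cells.

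Across all genes, edgeR's quasi-likelihood test on the matched sums, with the library as a block and an adjusted p under 0.05 as the call, compared LGR6+LEF1+ with LGR6-LEF1- cells. It called 7312 of 19939 genes (36.7%), of which 3541 (17.8%) were higher and 3771 (18.9%) lower in LGR6+LEF1+ cells. These percentages are the background for each gene group below. Both classes were cut from the same 2 libraries. The spread behind each p is that between libraries in the ratio of the classes, moderated by edgeR towards a trend over all genes. The SE of a gene can thus be smaller than its libraries differ. LGR5, for example, had log2 ratios of 1.90 in PPDO 1 and 2.90 in PPDO 2 and an SE of 0.22. Without the library block, 1134 genes were called. The split of calls by direction depended on scaling. With plain scaling to library size in place of TMM factors, 8869 genes were called and 76.0% of them were higher, against 48.4% with TMM, and the median log2 fold change over all genes moved from 0.0165 to 0.216. Gene groups are given with TMM, and counts with plain scaling are given beside or after them for most groups.

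By size of change, among called genes with at least 30 CPM in the higher class and the same direction in both libraries, the 12 leading genes higher in LGR6+LEF1+ cells were CXCL14, KLHL29, CACHD1, HMCN1, MOXD1, APCDD1, IGFBP2, LGR5, MOB3B, CYP1B1, FRMD4A and COL14A1, of which CXCL14, CACHD1 and HMCN1 came with the rule. IGFBP2, a secreted binding protein of insulin-like growth factors, had 597 and 242 CPM in LGR6+LEF1+ cells against 114 and 37.3 CPM in LGR6-LEF1- cells, with a log2 fold change of 2.34 ± 0.08 (SE, n = 2, adjusted p = 5.8e-05, edgeR). Its level differed between libraries, and within each library it was several-fold higher in LGR6+LEF1+ cells. COL14A1, a fibril-associated collagen, had 131 and 78.9 against 31.9 and 13.3 CPM, and CYP1B1, a cytochrome P450 enzyme, 30.6 and 44.9 against 6.41 and 6.89 CPM. FRMD4A, a scaffold protein of epithelial polarity, had 130.4 and 157 against 22.1 and 30.5 CPM, and KLHL29 70.6 and 31.8 against 7.33 and 3.78 CPM. The log2 fold changes of these 12 genes lay between 2.09 and 3.23. For each of them both LGR6+LEF1+ sums were above both LGR6-LEF1- sums. This adds no support, since the genes were picked by size and direction of change.

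Of 18 WNT receptor genes tested, 11 were higher in LGR6+LEF1+ cells, 1 was lower and 6 were not called, with a median log2 fold change of 0.46 beside 0.0165 over all genes. LGR5, the R-spondin receptor that marks intestinal and hair follicle stem cells, had 46.8 and 23.7 CPM in LGR6+LEF1+ cells against 10.9 and 2.68 CPM, a log2 fold change of 2.32 ± 0.22 (adjusted p = 0.00097, edgeR). LGR4 had 130.4 and 114 CPM against 102 and 97.3, with a log2 fold change of 0.09 ± 0.05 that was not called. With plain scaling LGR4 was called as higher (log2 fold change 0.29). The ligase genes that R-spondin receptors act on differed from each other. ZNRF3 had 120.0 and 104 CPM against 36.9 and 32.2 (adjusted p = 5.7e-05, edgeR), while RNF43 had 42.2 and 44.3 against 44.9 and 38.4 CPM, values that overlapped and were not called. The difference between the ligases was not tested.

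Among the frizzled genes, which encode the WNT receptors proper, FZD10 showed the largest log2 fold change, 3.30 ± 0.24, at 6.53 and 2.06 CPM against 0.462 and 0.276 CPM. FZD1, FZD3 and FZD7 were also higher, with log2 fold changes of 0.59 to 0.88. FZD2 was called higher at under 1 CPM (log2 fold change 2.22 ± 0.45), with 0.614 and 0.276 against 0.0749 and 0.0919 CPM, so that PPDO 1 showed the larger difference. FZD5 was lower (log2 fold change -0.53 ± 0.09) with sums that overlapped between the classes. The co-receptor genes LRP5 and LRP6 were higher, LRP5 with 78.8 and 62.7 against 42.4 and 33.1 CPM, as were ROR2 and RYK, receptors of non-canonical WNT signalling. ROR2 had 134 and 76.6 CPM against 62.5 and 33.9, and PPDO 2 LGR6+LEF1+ cells stayed above PPDO 1 LGR6-LEF1- cells.

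WNT ligands and secretion genes were called in both directions, 6 higher, 3 lower and 7 not called of 16, with a median log2 fold change of 0.35. WNT3 had 25.2 and 30.6 CPM in LGR6+LEF1+ cells against 4.64 and 6.74 (log2 fold change 2.11 ± 0.09, adjusted p = 0.00011, edgeR). WNT6 had 36.2 and 33.0 against 9.38 and 8.48 CPM, and WNT10A and WNT3A were also higher, with log2 fold changes of 1.06 ± 0.06 and 1.95 ± 0.13. WNT5A and PORCN, the acyltransferase that lipidates WNT proteins, were higher at low levels, with 2.66 to 4.05 CPM in LGR6+LEF1+ cells. WNT7A was lower, at 0.889 and 0.752 against 3.32 and 1.90 CPM, and so was WNT7B, at 35.8 and 47.4 against 43.7 and 56.9 CPM with overlapping sums. WLS, the carrier of WNT proteins to the surface, was called lower with TMM (log2 fold change -0.23 ± 0.04) but not with plain scaling (-0.03).

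In the list of secreted WNT antagonists, which also holds KREMEN1 and KREMEN2, membrane receptors for the antagonists of the DKK family, 4 of 9 genes were called higher and 0 lower, with a median log2 fold change of 0.92. With plain scaling 8 of 9 were called as higher. NOTUM, a secreted enzyme that inactivates WNT proteins, had 2.45 and 1.58 CPM against 0.0749 and 0.0612 CPM (log2 fold change 4.67 ± 0.27, adjusted p = 0.00021, edgeR). The others were SFRP1, a frizzled-related protein that binds WNTs, at 5.12 and 9.24 against 1.80 and 2.68 CPM, SOSTDC1, a WNT and BMP antagonist, at 3.98 and 6.22 against 1.61 and 1.93 CPM, and the membrane receptor gene KREMEN2, at 24.0 and 13.8 against 8.44 and 5.71 CPM. For each of the 4 genes the classes did not overlap, which describes called genes only, as the share of all genes without overlap was not counted. The log2 ratios of NOTUM within PPDO 1 and 2, with 0.1 CPM added, were 3.67 and 3.18, below its fitted value.

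WNT targets and feedback genes had the highest median among the WNT groups, a log2 fold change of 1.85, with 10 of 13 genes higher, 1 lower and 2 not called. NOTUM, LGR5, ZNRF3 and RNF43 are counted here as well as above. AXIN2, a feedback inhibitor widely read as a reporter of beta-catenin activity, had 51.0 and 41.5 CPM in LGR6+LEF1+ cells against 11.9 and 10.4 CPM (log2 fold change 1.85 ± 0.07, adjusted p = 6.1e-05, edgeR). APCDD1, a membrane inhibitor of WNT signalling, had 32.6 and 35.6 against 5.18 and 5.24 CPM. ASCL2, a transcription factor of intestinal stem cells, had 14.5 and 5.90 against 1.90 and 0.949 CPM. TNFRSF19, a receptor gene of the tumour necrosis factor family, had 76.1 and 66.0 against 28.7 and 21.2 CPM. NKD1 and BAMBI were higher at under 1 CPM, and MYC by a log2 fold change of 0.28 ± 0.05. The cell cycle gene CCND1 went the other way, with 174 and 158 CPM against 267 and 225 (log2 fold change -0.76 ± 0.05, adjusted p = 0.00025, edgeR). TCF7, a paralog of LEF1, had 23.8 and 23.1 CPM against 23.6 and 22.0 and was not called.

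The 15 effector genes of the pathway had a median log2 fold change of -0.03, with 4 higher, 4 lower and 7 not called. CTNNB1, which encodes beta-catenin, had 131 and 139 CPM against 123 and 125 and was not called (adjusted p = 0.26, edgeR). TCF7L2, another partner of beta-catenin, was higher, at 323 and 263 against 222 and 186 CPM (log2 fold change 0.32 ± 0.04). The co-repressor genes split, with TLE2 higher (log2 fold change 1.29 ± 0.10), TLE1 lower (-1.02 ± 0.12) and TLE4 called lower with TMM (-0.36 ± 0.07) but not with plain scaling (-0.16).

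**Figure D3:**
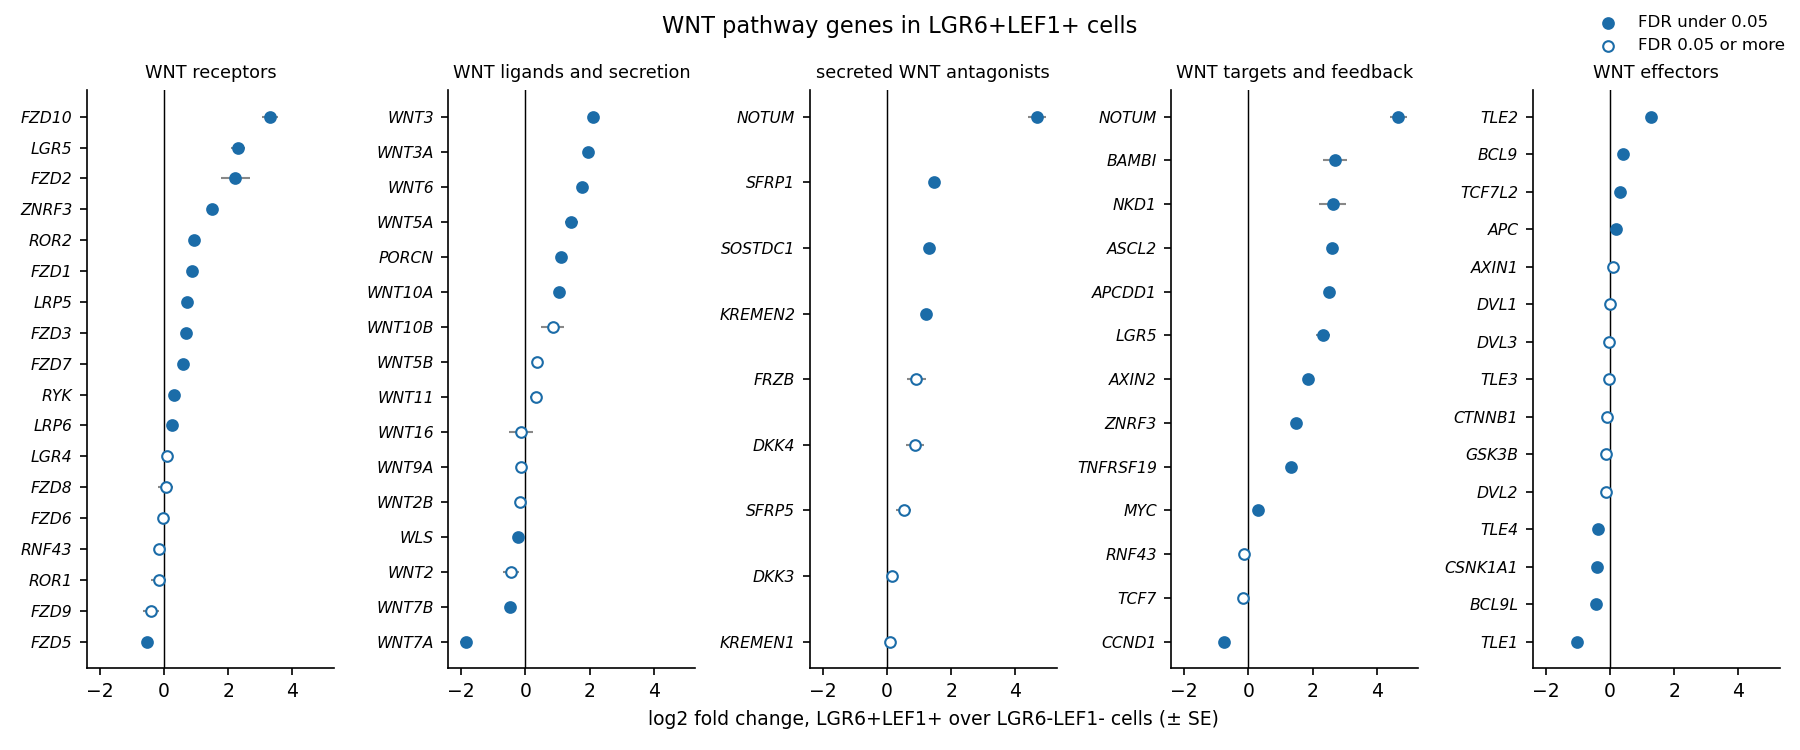
Log2 fold change of each tested WNT pathway gene in LGR6+LEF1+ over LGR6-LEF1- cells (horizontal axis, edgeR, depth-matched sums, n = 2 libraries) with its SE as a bar, in 5 groups. The panel of secreted antagonists includes the membrane receptors KREMEN1 and KREMEN2. Filled points had an adjusted p under 0.05. NOTUM has the largest log2 fold change at 4.67, from a level near 0 in LGR6-LEF1- cells, and the 15 effectors lie between -1.02 and 1.29.

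Hair placode and bulge genes, which pattern and maintain hair follicles, were higher for 13 of 22 genes and lower for 2, with a median log2 fold change of 0.62. CXCL14, which came with the rule, is 1 of the 13. EDAR, the ectodysplasin receptor that starts hair placodes, had 31.7 and 18.9 CPM in LGR6+LEF1+ cells against 5.74 and 3.95 CPM (log2 fold change 2.17 ± 0.09, adjusted p = 8.9e-05, edgeR). Its adaptor gene EDARADD had 75.3 and 67.1 against 37.3 and 37.6 CPM. In the hedgehog pathway, the transcription factor gene GLI2 was at 10.2 and 10.0 CPM against 1.42 and 0.689, with a log2 fold change of 3.05 ± 0.23, and the receptor gene PTCH1 had 20.3 and 18.0 against 10.6 and 9.62 CPM. The ligand gene SHH was near 0, at 0.225 and 0.184 against 0.175 and 0.230 CPM. NFATC1 and CD34, known from bulge stem cells, had log2 fold changes of 0.75 ± 0.08 and 0.91 ± 0.17. RUNX1 was lower, at 44.7 and 33.2 against 62.0 and 56.1 CPM, and so was SOX21, at 0.889 and 1.93 against 6.09 and 8.71.

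Of 6 SOX factor genes tested, SOX5 and SOX6, the latter given with the rule, were higher, SOX13 and SOX21 lower, and SOX7 and SOX9 not called. SOX9 and SOX21 are counted in the hair group as well. With plain scaling SOX13 lost its call and SOX7 was called as higher. SOX5, the closest paralog of SOX6, had 15.5 and 12.1 CPM against 8.81 and 5.44 (log2 fold change 0.77 ± 0.11). SOX9, a factor of both pancreatic duct and hair bulge, had 4.50 and 1.17 CPM against 2.67 and 2.07, so the classes overlapped and the libraries pointed in opposite directions.

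The basal group, genes of the epithelial layer on the basement membrane, divided into 6 higher, 7 lower and 5 not called of 18. TP63, the master regulator of basal squamous cells, had 699.6 and 692 CPM in LGR6+LEF1+ cells against 484 and 502 CPM (log2 fold change 0.30 ± 0.04, adjusted p = 0.0030, edgeR). NGFR and DLK2, surface proteins of basal progenitors, were also higher, DLK2 with 22.0 and 27.5 against 5.91 and 8.08 CPM. The abundant keratin gene KRT5 was lower, with 3826 and 5847 CPM against 7811 and 10108 (log2 fold change -1.11 ± 0.06), and so was the hemidesmosome integrin gene ITGA6, with 436 and 622 against 1042 and 1004. KRT15 had 1108 and 1560 against 1222 and 1270 CPM and was not called. The group thus held calls in both directions.

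Cornified genes, which build the outer squamous layer, were lower for 20 of 20 genes tested, with a median log2 fold change of -4.02. Their list was chosen with results of these data known, so the counts and folds of this group are descriptions. SPINK5 and KLK7 were among the leading genes of cluster 5 below, and S100A8, S100A12 and KRTDAP among those of cluster 8. These clusters held 1 and 0 LGR6+LEF1+ cells per library. With plain scaling 19 of the 20 were called as lower. KRTDAP, a secreted protein of differentiating keratinocytes, had 24.1 and 69.2 CPM in LGR6+LEF1+ cells against 782 and 2154 CPM (log2 fold change -5.19 ± 0.05, adjusted p = 1.9e-06, edgeR). S100A12 had 55.5 and 241 against 1781 and 4242 CPM, and IVL, a protein of the cornified envelope, 4.36 and 19.1 against 69.4 and 211. SPINK5, a protease inhibitor of shedding skin, had 0.989 and 1.11 against 29.5 and 34.8 CPM. The summed level of the 20 genes was 242 and 575 CPM against 3556 and 9112 CPM, and the PPDO 2 sum was above that of PPDO 1 in both classes. Among called genes with at least 30 CPM in the higher class, the 12 leading genes lower in LGR6+LEF1+ cells by size of change were SPRP, KRTDAP, SPINK5, SLPI, S100A12, PLA2G4E, DMKN, S100A8, KLK7, TPRG1, IVL and KRT23, of which 7 belong to the cornified group.

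Hypoxia and glycolysis genes were lower for 18 of 20, with a median log2 fold change of -0.81 and CA9 as the only gene called higher. ADM, a vasodilator peptide induced by low oxygen, had 38.5 and 74.7 CPM in LGR6+LEF1+ cells against 144 and 184 CPM (log2 fold change -1.80 ± 0.14, adjusted p = 0.00048, edgeR). NDRG1 had 208 and 383 against 686 and 816 CPM, and the glycolytic enzyme gene GAPDH 4602 and 6370 against 9370 and 11066. With plain scaling 16 of the 20 were lower, and PGAM1 and PFKP lost the call.

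Among genes of the S phase and G2 and mitosis lists most were higher in LGR6+LEF1+ cells. All 19 S phase genes tested were called higher, with a median log2 fold change of 1.06 and summed levels of 423 and 483 CPM against 226 and 244 CPM. DTL, which acts in DNA replication control, had 19.3 and 19.6 against 3.81 and 4.52 CPM (log2 fold change 2.03 ± 0.09, adjusted p = 0.00012, edgeR). Of 20 G2 and mitosis genes, 19 were higher, with a median of 0.85, and NUSAP1 was not called (called as higher with plain scaling). TOP2A, a topoisomerase of dividing cells, had 38.3 and 65.1 against 10.9 and 14.3 CPM, and CENPF, a kinetochore protein, 37.3 and 55.0 against 14.1 and 18.0.

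Duct genes were called lower for 6, higher for 1 and not called for 7 of 14, with a median log2 fold change of -0.37. With plain scaling 6 were called lower and 2 higher. CLDN4, a tight junction protein, had 32.6 and 23.8 CPM in LGR6+LEF1+ cells against 87.0 and 78.7 CPM (log2 fold change -1.77 ± 0.08, adjusted p = 0.00013, edgeR). KRT7 had 317 and 284 against 463 and 443 CPM, and SPP1, the secreted matrix protein osteopontin, 4.46 and 7.25 against 32.1 and 24.5. The chloride channel gene CFTR, which defines bicarbonate-secreting duct cells, was near 1 CPM in both classes, at 1.74 and 0.676 against 0.524 and 0.766, and was not called. Of 10 genes that mark the other organoid states, 7 were lower, 1 (IGFBP6) was higher and 2 were not called. These genes were chosen with results of these data known, and some, such as SPINK5 and SPP1, are also counted in the cornified or duct group. MMP3, a matrix protease, had 541 and 574 against 1709 and 1218 CPM, and GPNMB, a membrane glycoprotein, 40.2 and 30.1 against 119 and 72.4.

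In the NOTCH pathway, 6 of 21 genes were higher, 6 lower and 9 not called. The ligand genes JAG2, at 36.9 and 28.7 against 12.9 and 10.6 CPM, and DLL1 were higher, as was LFNG, a glycosyltransferase that tunes NOTCH receptors. NOTCH2 and NOTCH3 were lower, with log2 fold changes of -0.71 ± 0.05 and -0.66 ± 0.06. NRARP, a feedback target of NOTCH, had 9.14 and 5.33 against 33.7 and 23.8 CPM (log2 fold change -2.21 ± 0.09, adjusted p = 9.2e-05, edgeR), and the target gene HES1, at 124 and 100.1 against 92.3 and 90.6 CPM, was not called with TMM and was called as higher with plain scaling.

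For BMP and TGF-beta genes the count was 12 higher, 4 lower and 6 not called of 22, with a median log2 fold change of 0.27. BAMBI is counted here as well as among WNT targets, and BMP7 here as well as among hair genes. The ligand genes TGFB2, at 11.6 and 11.7 against 2.16 and 2.17 CPM, and BMP7, at 119.7 and 98.9 against 66.1 and 46.1 CPM, were higher, as were the receptor genes TGFBR3 and BMPR1B. ID2, a target of BMP signalling, was lower, at 27.6 and 19.6 against 76.3 and 52.2 CPM (log2 fold change -1.64 ± 0.05, adjusted p = 5.7e-05, edgeR). Other BMP target genes in the list differed in direction. In sums of the 4 depth-matched classes, SMAD6 had 11.4 and 7.46 against 4.66 and 2.46 CPM, and ID1 343 and 340 against 402 and 379. EGF and FGF genes were called higher for 7 and lower for 9 of 21. FGFR2, the receptor for the FGF10 in the medium, had 222 and 173 against 69.7 and 54.0 CPM (log2 fold change 1.48 ± 0.05), and the ERBB ligand gene NRG1 1275 and 1172 against 516 and 518. The EGF receptor ligands HBEGF, EREG and AREG were lower, HBEGF with 77.3 and 85.5 against 189 and 205 CPM, as was EGFR (log2 fold change -0.42 ± 0.04). Immediate early genes, which respond to dissociation among other stimuli, were called higher for 4 and lower for 4 of 11, with a median of -0.10. With plain scaling the counts of higher and lower genes were 9 and 4 for NOTCH, 15 and 3 for BMP and TGF-beta, 9 and 6 for EGF and FGF, 4 and 2 for immediate early, 16 and 2 for hair, 8 and 5 for basal, 13 and 1 for WNT receptor, 7 and 2 for WNT ligand, 5 and 3 for WNT effector, and 2 and 16 for hypoxia genes.

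Markers of other pancreas cells were low in both classes. Summed levels in LGR6+LEF1+ cells and LGR6-LEF1- cells were 1.503 and 2.01 against 0.974 and 0.704 CPM for 8 matched stromal markers, 6.22 and 7.71 against 4.94 and 6.34 CPM for 6 endocrine markers and 20.3 and 25.9 against 28.3 and 31.9 CPM for 6 acinar markers. For 6 endothelial markers they were 21.1 and 17.3 against 22.8 and 19.6 CPM, and for 4 Schwann cell markers 8.72 and 7.89 against 6.47 and 6.09. The 8 immune markers summed to 6.12 and 6.16 against 26.6 and 26.8 CPM, nearly all of it CD68, a lysosomal protein, at 5.41 and 5.73 against 26.1 and 26.3. Of 17 markers tested, 0 were called higher by edgeR with TMM, while markers such as COL3A1, CHGA and SOX10 were called as higher with plain scaling. CD68, FLT1 and RBPJL were called lower. The defining genes GCG and NEUROD1 (endocrine), DCN and LUM (stromal), CDH5 (endothelial) and CPB1 and PNLIP (acinar) were too low to be tested.

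LGR6+LEF1+ cells were also set against cells with 1 of the 2 genes. For these comparisons a fit over 4 depth-matched classes was used, with 813 cells per class in PPDO 1 and 491 in PPDO 2. The share of LGR6+LEF1+ cells moved with depth, so single-positive cells can include cells whose other gene was missed. In these sums LGR6 had 168 and 183 CPM in LGR6+LEF1+ against 109 and 110 in LGR6+ only cells. LEF1 had 92.5 and 93.3 against 53.6 and 60.6 CPM in LEF1+ only cells. The part of missed detection and of these levels in the differences below was not tested. Both comparisons use the same LGR6+LEF1+ sums, so they are not independent and are given side by side. Against LGR6+ only cells, 1446 of 17501 genes (8.26%) were called, 549 higher (3.14%) and 897 lower (5.13%) in LGR6+LEF1+ cells, and against LEF1+ only cells 3208 (18.3%), 1509 higher (8.62%) and 1699 lower (9.71%). With plain scaling, higher genes made up 70.4% of calls against LGR6+ only cells rather than 37.97%, and 60.9% rather than 47.0% against LEF1+ only cells. Without the library block, no gene was called against LGR6+ only cells (1157 at an unadjusted p under 0.05, and 908 genes called by DESeq2 with the block) and 218 against LEF1+ only cells. In a second random draw of cells, 743 and 2547 genes were called.

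CXCL14 had 437 and 307 CPM in LGR6+LEF1+ cells, 164 and 93.8 in LGR6+ only cells, 137 and 120.1 in LEF1+ only cells and 33.8 and 29.5 in LGR6-LEF1- cells. The log2 fold change of LGR6+LEF1+ cells was 1.46 ± 0.10 over either single-positive class. AXIN2 differed between the single-positive classes, at 33.8 and 24.2 CPM in LGR6+ only and 14.7 and 14.4 CPM in LEF1+ only cells, against 52.1 and 37.8 in LGR6+LEF1+ cells. Its log2 fold change was 0.55 ± 0.09 over LGR6+ only cells (adjusted p = 0.0039, edgeR) and 1.59 ± 0.10 over LEF1+ only cells (adjusted p = 1.6e-06, edgeR). LGR5 stood at 47.1 and 26.2, 31.9 and 11.6, and 18.5 and 6.36 CPM in LGR6+LEF1+, LGR6+ only and LEF1+ only cells. ASCL2 and DLK2 were called higher over LEF1+ only cells, with log2 fold changes of 2.34 ± 0.16 and 1.64 ± 0.09, and were not called over LGR6+ only cells, at 0.44 ± 0.14 and 0.18 ± 0.08. The log2 ratio of ASCL2 over LGR6+ only cells was 0.59 in PPDO 1 and 0.17 in PPDO 2. The difference between these fold changes was not tested.

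By group, WNT targets and feedback genes were higher for 6 of 11 and lower for 0 against LGR6+ only cells, and higher for 7 and lower for 1 against LEF1+ only cells. For WNT receptors the counts were 6 and 0 of 17, and 8 and 1 of 17, and for hair placode and bulge genes 6 and 2 of 20, and 10 and 2 of 20. Cornified genes were lower for 8 of 19 against LGR6+ only and 15 of 19 against LEF1+ only cells, with higher ones at 0 in both. KRTDAP was at 20.7 and 53.8 CPM in LGR6+LEF1+, 214 and 209 in LGR6+ only and 247 and 1223 in LEF1+ only cells. Hypoxia and glycolysis genes were lower for 14 and 12 of 20, and higher for 0 and 2. S phase genes were higher for 4 and 13 of 19, and G2 and mitosis genes for 5 and 1 of 20. TOP2A had 45.1 and 68.7 CPM in LGR6+LEF1+ cells, 24.6 and 42.7 in LGR6+ only and 28.7 and 60.9 in LEF1+ only cells, and was called against the LGR6+ only class (log2 fold change 0.71 ± 0.17, adjusted p = 0.029, edgeR). With plain scaling, 8 and 8 WNT targets, 8 and 8 receptors, 9 and 12 hair, 9 and 15 S phase and 7 and 1 G2 and mitosis genes were higher, and 7 and 15 cornified and 11 and 11 hypoxia genes lower, over LGR6+ only and LEF1+ only cells.

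By size of change among called genes with at least 30 CPM in the higher class, the 5 leading higher genes against LGR6+ only cells were CXCL14, KLHL29, CACHD1, IGFBP2 and FRMD4A, with log2 fold changes from 0.90 to 1.46, and the leading lower ones KRTDAP, SLPI, S100A12, KRT23 and S100A8, from -2.88 to -1.73. With the same limit, against LEF1+ only cells they were APCDD1, KLHL29, HMCN1, AXIN2 and MOXD1, from 1.57 to 1.90, and KRTDAP, SLPI, SPRP, S100A12 and IVL, from -4.17 to -3.16. SLPI, a secreted protease inhibitor, had 13.4 and 18.1 CPM in LGR6+LEF1+ cells, 94.5 and 59.6 in LGR6+ only cells and 90.5 and 430.3 in LEF1+ only cells. Some cornified genes differed between libraries. Over LGR6+ only cells the log2 ratio (CPM with 0.1 added, TMM-scaled) of S100A8 was -2.65 in PPDO 1 and -0.84 in PPDO 2, and that of S100A12 -3.17 and -1.27. Where 2 UMIs of each gene were asked for, S100A8 had a log2 fold change of 0.12 over LGR6+ only cells and IVL 0.02 over LEF1+ only cells, and neither was called. That setting also drops cells with exactly 1 UMI of either gene from every class and leaves 366 and 244 cells per class. What moved these values was not tested.

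LGR6+LEF1+ cells also varied among themselves. They were graded by LGR6 UMIs (1, 2 to 3, 4 to 7, and 8 or more) with equal weight to each of 18 and 20 depth bins in PPDO 1 and 2, and the levels are descriptions without a test. A depth bin was used where each grade held at least 1 cell, so a single cell can carry a bin. CXCL14 stepped from 339 through 491 and 541 to 699 CPM in PPDO 1 and from 163 through 273 and 362 to 390 CPM in PPDO 2. LGR5 went from 21.1 to 86.9 and from 8.76 to 48.7 CPM between the lowest and the highest grade, and AXIN2 from 28.9 to 83.5 and from 23.8 to 66.4 CPM. All 3 genes had the same order of grades in both libraries. LGR4 had no such order, with 145 and 106 CPM in the lowest and 133 and 123 in the highest grade. KRT5 was lowest in the highest grade, at 2703 and 4353 CPM, and TP63 highest there, at 807 and 814 CPM.

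Graded by LEF1 UMIs in the same steps, over 16 and 19 depth bins, CXCL14 went from 309 to 893 and from 189 to 705 CPM. AXIN2 went from 39.7 to 81.6 and from 32.8 to 69.2 CPM, and KRT15 from 1256 to 621 and from 1807 to 1032. TOP2A was at 25.6 and 34.8 CPM in the lowest LEF1 grade and at 67.8 and 82.3 CPM in the highest, which held 242 and 151 cells, whereas in the highest LGR6 grade it was at 20.4 and 37.1 CPM, below the other grades. The summed G2 and mitosis genes ran alike, at 662 and 751 CPM in the highest LEF1 grade against 420 and 482 CPM in the lowest, and at 361 and 449 CPM in the highest LGR6 grade against 499.8 and 702 CPM in the lowest. In these averages the highest LEF1 grade had the most mitotic RNA of its 4 grades in both libraries, and the highest LGR6 grade the least. In PPDO 1, TOP2A was at 24.2 and 21.5 CPM in the LEF1 grades of 2 to 3 and 4 to 7 UMIs. There it rose only at the highest LEF1 grade. The part of depth bins with few cells of a grade was not tested. Summed S phase genes did not follow this over LGR6 grades, at 346 and 401 CPM in the lowest and 417 and 439 CPM in the highest.

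**Figure D4:**
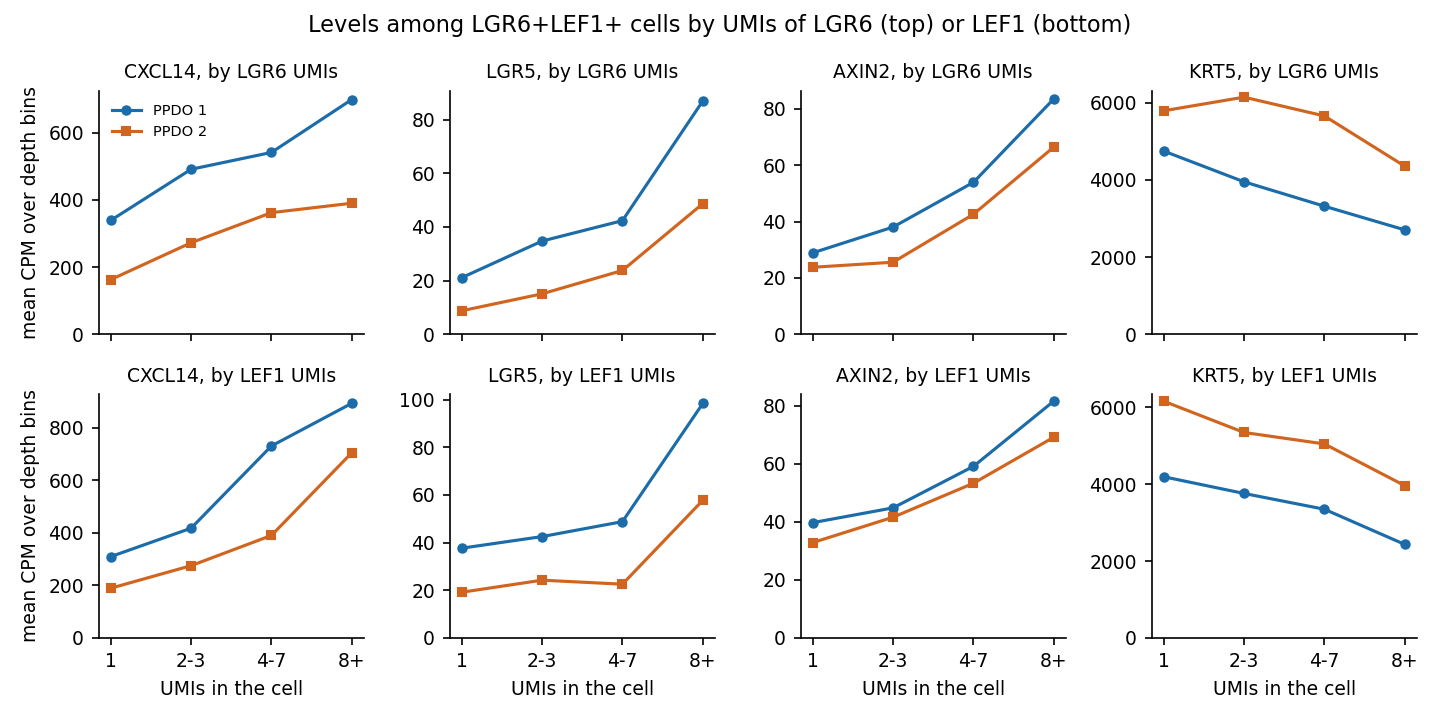
Mean CPM over depth bins (vertical axes from 0) of CXCL14, LGR5, AXIN2 and KRT5 in LGR6+LEF1+ cells grouped by their UMIs of LGR6 (top row) or LEF1 (bottom row), for PPDO 1 (circles) and PPDO 2 (squares). CXCL14 and AXIN2 are higher at each step of either gene in both libraries, and KRT5 is lowest at 8 or more UMIs.

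Clusters of all organoid cells were made without LGR6 and LEF1 and are called by number and leading genes. Cluster 2, led by CXCL14, HMCN1, KLHL29, CDH13 and CACHD1, held 56.9% and 45.9% of the LGR6+LEF1+ cells of PPDO 1 and 2, which made up 67.5% and 54.3% of its cells. The other LGR6+LEF1+ cells were spread over further clusters. Cluster 0, led by PTGS2, SERPINE2 and IGFBP6, held 19.6% and 24.7% of them. Cluster 6, led by DTL, ZNF367 and UHRF1, held 7.27% and 8.24%, and cluster 4, led by CENPF and TOP2A, 5.95% and 8.66%. Of the cells in clusters 6 and 4, 50.5% and 43.3%, and 31.5% and 32.4%, were LGR6+LEF1+. In cluster 5, led by SPINK5, 1 cell in each library was LGR6+LEF1+, and in cluster 8, led by S100A8, 0 of 35 and 0 of 94 cells, which at the limit of 3 counts allows a share of up to 8.57% and 3.19%. In cluster 1, led by TIMP3 and ADM, 1.78% and 5.76% of cells were LGR6+LEF1+. Clusters differed in depth, with medians of only 11540 and 14075 UMIs in cluster 8, 21375.5 and 27447 in cluster 1, 32060.5 and 35167 in cluster 5, and 38162 and 35966.5 in cluster 2. In PPDO 1, all cells of the depth bin with a median of 12166.5 UMIs had a share of 3.83%. After thinning to 10000 UMIs the shares were 33.5% and 26.7% in cluster 2, and 0.631% and 1.86% in cluster 1.

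Levels in the LGR6+LEF1+ cells of each cluster are given as a description, since CXCL14, TOP2A and the other genes apart from LGR6 and LEF1 could shape the clusters themselves. CXCL14 was at 612 and 412 CPM in the LGR6+LEF1+ cells of cluster 2, 233 and 163 in those of cluster 0, and 91.5 and 34.4 in those of cluster 3, led by MMP3 and GPNMB. TOP2A was at 439 and 563 CPM in those of cluster 4 and at 3.58 and 4.25 CPM in those of cluster 2. SOX6 lay between 212 and 590 CPM in the LGR6+LEF1+ cells of clusters 0, 2, 4 and 6.

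**Figure D5:**
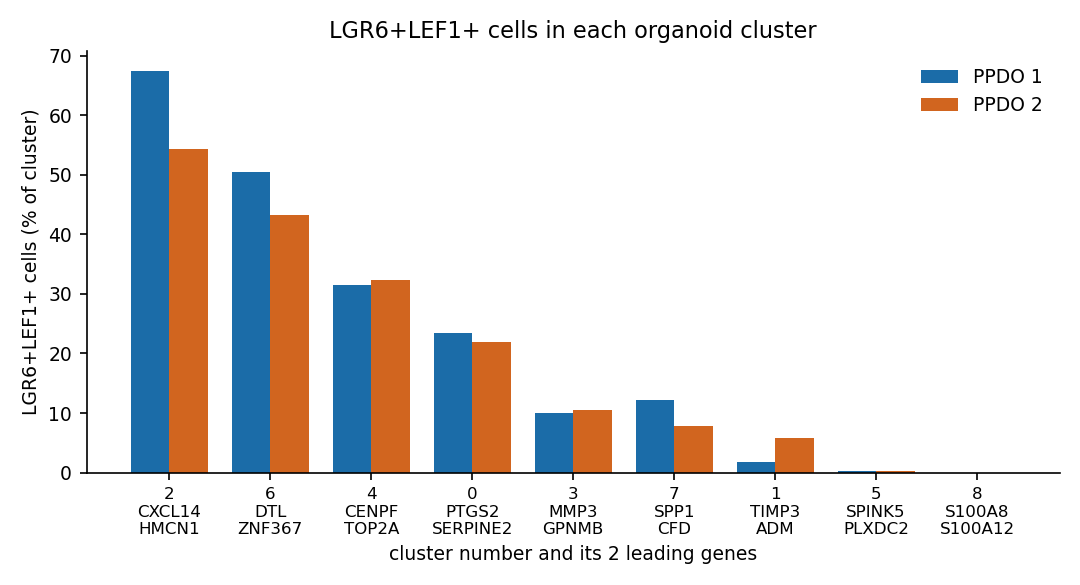
LGR6+LEF1+ cells as a percentage of each cluster's cells (vertical axis from 0) in PPDO 1 and PPDO 2, for 9 clusters ordered by their mean share and labelled with 2 leading genes. Cluster 2 has the highest share in both libraries, at 67.5% and 54.3%, cluster 5 holds 1 such cell per library, and the shallow cluster 8 holds 0. Cluster 9, with 11 cells, is not drawn.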

How the data were processed

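The deposited matrices held raw UMI counts per feature and barcode, which the authors made with Cell Ranger 7.1.0 from Chromium 3' libraries on the pig genome Sscrofa 11.1 with an in-house annotation. The authors ran ambient RNA correction later, so these counts were not corrected. The other deposited columns were names of features and barcodes. Here the annotated and extended features of a gene were summed, and barcodes with 1000 to 9000 features and at most 3% mitochondrial UMIs were kept. Doublets were scored but not removed.

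Equal numbers of cells per class were drawn at random from each of 20 depth bins per library and their UMIs summed. Sums were compared in edgeR 4.0.16 (R 4.3.3) with TMM factors, its low-count filter, the quasi-likelihood test, the library as a block and Benjamini-Hochberg adjustment, with a call at an adjusted p under 0.05. LGR6 and LEF1 were left out of the fits. The SE is the absolute log2 fold change divided by the square root of F. The block follows from the design, since both classes came from the same library. The p-values cover 2 libraries only. Clusters were made in Scanpy 1.11.5 with LGR6 and LEF1 left out. Genes named were members of fixed lists and, among genes with at least 30 CPM, the largest called changes. The members and lists were chosen with earlier results of these data known. The procedure was tested on simulated data with a dispersion of 0.005. There edgeR recovered 10% of 1.25-fold and 62% of 1.5-fold changes over LGR6-LEF1- cells. Over LGR6+ only cells it recovered 12% and 42%, and over LEF1+ only cells 6% and 46%. Small differences can thus go uncalled. DESeq2 1.42.0, other filters, bins, draws and gate settings were tried as alternatives, and scaling to library size only was added after seeing the data. Intervals cover counting error only. No sequences were used here. Some results of the gene lists are not reported here.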

Additional observations from a re-analysis of the deposited data

Results flagged for a closer look

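UMIs of the transgene features lay outside the measurements described above. The matrices list 8 such features, and in the organoid cells kept they held 16 UMIs in PPDO 1 and 0 in PPDO 2. The value in PPDO 1 is above the limit of 3 counts that a count of 0 allows, and it is given without an explanation. The paper used wild-type and INS-eGFP pigs and does not state the genotype behind each PPDO line. The part of genotype in these UMIs was not tested.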

How the results depend on the processing

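The share of LGR6+LEF1+ cells (mean of 24.3% over the libraries) was 14.4% with at least 2 UMIs of each gene and 10.3% after thinning to 10000 UMIs, and ranged from 23.0% to 25.5% when either library was left out. The odds ratio ranged from 3.48 to 5.07 when either library was left out. With 1 library no test of genes could be run, because no residual degrees of freedom remain.

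Without the replicate block, 1134 genes were called against LGR6-LEF1- cells, 0 against LGR6+ only cells (1157 at an unadjusted p under 0.05) and 218 against LEF1+ only cells, and 88 of 154 gene results lost their call. DESeq2 called 908 and 1962 genes against the LGR6+ only and LEF1+ only classes. With at least 2 UMIs of each gene the counts were 389 and 1495. A second draw gave 743 against LGR6+ only cells. Every other alternative tried gave a count within 1.5 times. The cause was not tested.

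Of 2208 recomputed gene results with a test 2056 kept their direction and side of the threshold, and 19 changed sign. With library size only, the log2 fold changes over LGR6-LEF1- cells were 0.12 for CTNNB1, 0.0778 for KRT15, 0.0039 for PGAM1, 0.0564 for RNF43, 0.0461 for SHH, 0.12 for SOX9 and 0.0395 for TCF7. KRT15 was at 0.0627 with depth not matched and at 0.0333 in the fit over 4 classes. Without the deepest 10% of cells CFTR was at -0.0297 and NUSAP1 at -0.0526. SOX9 was at 0.15 with at least 2 UMIs of each gene and at 0.0484 without the block. With at least 2 UMIs of each gene, DLK2 was at -0.28 and S100A8 at 0.12 over LGR6+ only cells, and IVL at 0.0172 and TOP2A at -0.35 over LEF1+ only cells. TOP2A was also at -0.34 without the 3' extensions and at -0.15 in the second draw. Of these 19, PGAM1, S100A8 and IVL had been called. Log2 ratios within a library, computed from CPM with 0.1 added and so smaller than the fitted values for genes near that level, differed in at least 1 library by over 1.5 times from the fitted log2 fold change for 22 of 154 gene results. Of these 13 were not called, among them ASCL2 over LGR6+ only cells (0.59 and 0.17) and CFTR (1.36 and -0.36), and 9 were called. The called ones included CA9 (0.16 in PPDO 1 and 0.38 in PPDO 2), CD34 (0.57 and 1.21) and SOX13 (-0.76 and -0.25), and over LGR6+ only cells LGR5 (0.49 and 1.08), S100A12 (-3.17 and -1.27) and S100A8 (-2.65 and -0.84). The ratios of the others, FZD2 (1.83 and 0.77), NKD1 (2.00 and 1.02) and BAMBI (1.74 and 1.79), all under 1 CPM, were below the fitted value in both libraries and are not on its scale.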
